A study of Apis mellifera with 10 samples.

Results

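The distal part of the odorant receptor array on linkage group 2 of the honey bee was described in antennal RNA. It was taken as all count rows on the forward strand of linkage group 2 from the gene that follows Or14 to the third gene after Or58, whatever their counts, which gave 42 of 12332 bee genes. In the assembly Amel_HAv3.1 their starts run from 10019570 to 10149997, and the last gene ends at 10152787. The libraries came from antennae of adult Apis mellifera in 2 groups of 5. In the orco_KO group, embryos had received a CRISPR ribonucleoprotein against orco; in the control group they had received injection buffer. Both groups were reared in the laboratory and dissected no more than 24 hours after eclosion. The labels give neither the edited alleles nor how many bees a library holds, so every p-value here reflects variation among libraries, which may not be variation among bees. In all lists of values, libraries follow the order of their labels, replicates 3, 5, 9, 11 and 12 for orco_KO and replicates 3, 4, 5, 6 and 7 for control.

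Insect odorant receptors are membrane proteins that bind odorants and work as ion channels only together with the coreceptor Orco, the product of orco. In Drosophila, receptors are not carried to the sensory dendrite without it. An olfactory neuron usually makes a single tuned receptor beside Orco. Bees and other Hymenoptera carry large receptor families that grew by tandem duplication, and the array on linkage group 2, which also holds the queen pheromone receptor Or11, is a long row of such copies.

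Total counts over bee genes ranged from 8577416 to 18308425 in orco_KO and from 9497211 to 23453690 in controls. The gene orco, which carries the symbol Or2, was at 22.9 ± 9.33 CPM in orco_KO and 382 ± 82.6 CPM in controls (CPM, counts scaled to library size with TMM factors; SD, n = 5 each), a log2 fold change of -4.06 (SE 0.281, adjusted p = 1.0e-06) by the quasi-likelihood test of edgeR. Over 9222 tested genes, 7.98% were called lower and 4.57% higher at an adjusted p below 0.05. By this count 63.6% of calls were lower, and by the Wald test of DESeq2 51.4%. Controls 6 and 7 stood apart from the other controls in an earlier analysis of these data, so the main counts are also given without them.

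All 42 loci are annotated as protein coding and lie head to tail on a single strand. The symbols name 16 of them as receptors (Or19, Or25 to Or27, Or30, Or35, Or37, Or41, Or50 to Or53 and Or55 to Or58), and the numbers increase along the strand. The other 26 carry LOC numbers, and the gene table used here gives them no function. The median length of a gene span was 2217 bases (1496 to 6605). The gap between neighbours had a median of 659 bases and was 3589 bases at most, between Or27 and Or30. Spans overlapped at 4 of the 41 borders (Or30 with LOC726097, Or35 with LOC100577226, LOC102656907 with Or55, LOC102653637 with LOC102653703). Reads in an overlap on the same strand were left out of the count, as were reads with several positions, so counts of similar copies are minimum values.

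The array as a whole was present at a lower level in every orco_KO library. The summed level of the 42 loci was 25.1, 31.6, 61.2, 47.2 and 41.9 CPM in orco_KO libraries, against 159.9, 145, 175, 165 and 167 CPM in controls. The means were 41.4 ± 14 CPM in orco_KO and 162 ± 11 CPM in controls (SD, n = 5 each). The lowest control was thus above the highest orco_KO library, and controls lay closer together than orco_KO libraries. In bulk RNA, fewer cells of a type and less RNA per cell cannot be told apart. Every control held at least 1 read at each of the 42 loci, while 10, 14, 0, 3 and 5 loci had no read in orco_KO libraries. The limit that a count of 0 allows, 3 reads, corresponds to 0.347 CPM in orco_KO replicate 3 and 0.431 CPM in replicate 5, and 0.155 CPM in replicate 9, which had no empty locus. It was 0.403 CPM in control replicate 3, which had no empty locus either. Orco_KO replicate 9 had the highest level of its group at 22 of 42 loci, and replicate 3 the lowest, alone or tied, at 22.

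**Figure D1:**
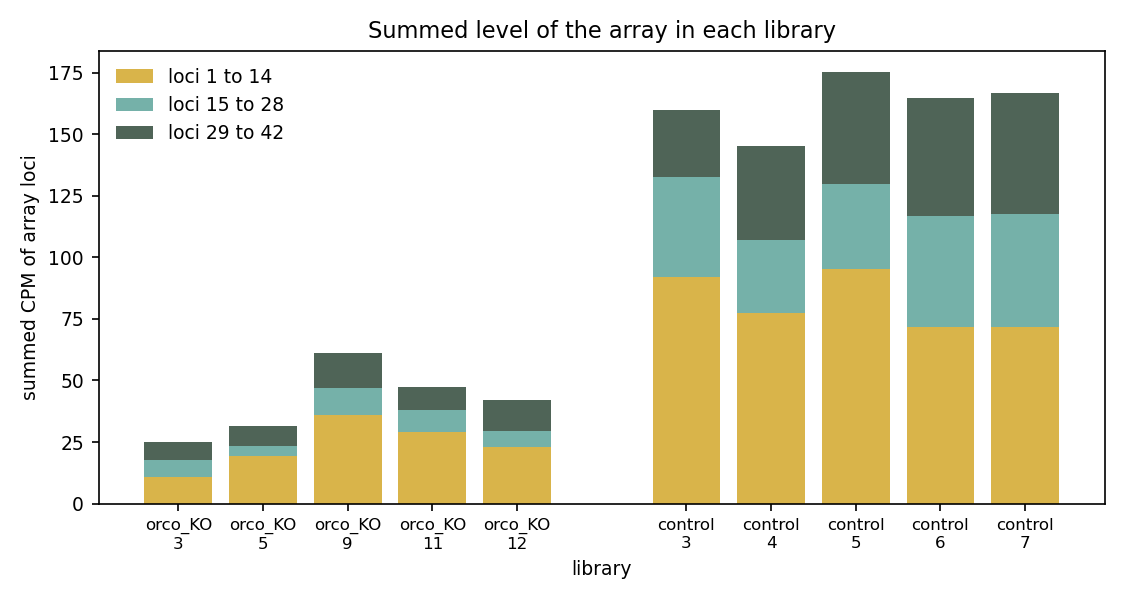
Summed CPM of the 42 array loci (y axis) in each library (x axis), orco_KO on the left and control on the right, with the loci split by order along the array into 3 sets of 14. The 5 orco_KO bars reach 25.1 to 61.2 CPM and the 5 control bars 145 to 175 CPM.

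No locus of the array was called higher in orco_KO. Without a filter on low counts, 42 loci could be tested, of which 32 were lower and 0 higher; 6.50% of all genes were called lower in that fit. All 42 fold changes were negative, and their median log2 value was -2.13, against -0.05 over all genes. With the filter used for the main fit, 35 loci were tested, of which 26 were lower, 0 were higher and 9 did not pass, beside the background of 7.98%. Their median log2 value was -1.96, against -0.06 over all genes. The 7 loci removed by the filter have low counts in some controls, so the loci that remained are not a fair sample of the array. DESeq2 called 30 of the 35 lower and 0 higher, beside 8.94% of all genes lower in that fit. At 33 of the 42 loci every orco_KO library lay below every control, which was so for 6.31% of genes with a read. Among the 35 tested loci this held for 27, beside 7.45% of tested genes. Without control replicates 6 and 7, 20 of 33 tested loci were lower and 0 higher, beside 7.71% of all genes.

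Most neuron markers fell as well. Of the 7 neuron markers listed, 6 were lower and 0 higher, beside 7.98% and 4.57% of all tested genes. Their median log2 fold change was -1.39. Their summed level was 4340 to 6429 CPM in orco_KO and 7640 to 18380 CPM in controls, and none was at 0. The presynaptic adhesion gene Nrx-1 was at 246 ± 46.5 CPM in orco_KO and 987 ± 152 CPM in controls, while the syntaxin gene Syx1A was at 945 ± 65.9 CPM in orco_KO and 916 ± 308 CPM in controls. The only gene listed for glia, the glutamate transporter gene Eaat-2, fell as well, to 0.829 CPM in orco_KO, against 7.4 CPM in controls. A single gene does not show how glia as a whole changed. Of 4 muscle genes matched out of 8 listed, 1 rose and 1 fell. Of 4 eye markers, 2 were tested and 1 rose (Blop). The part of these lists in the result was not tested.

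**Figure D2:**
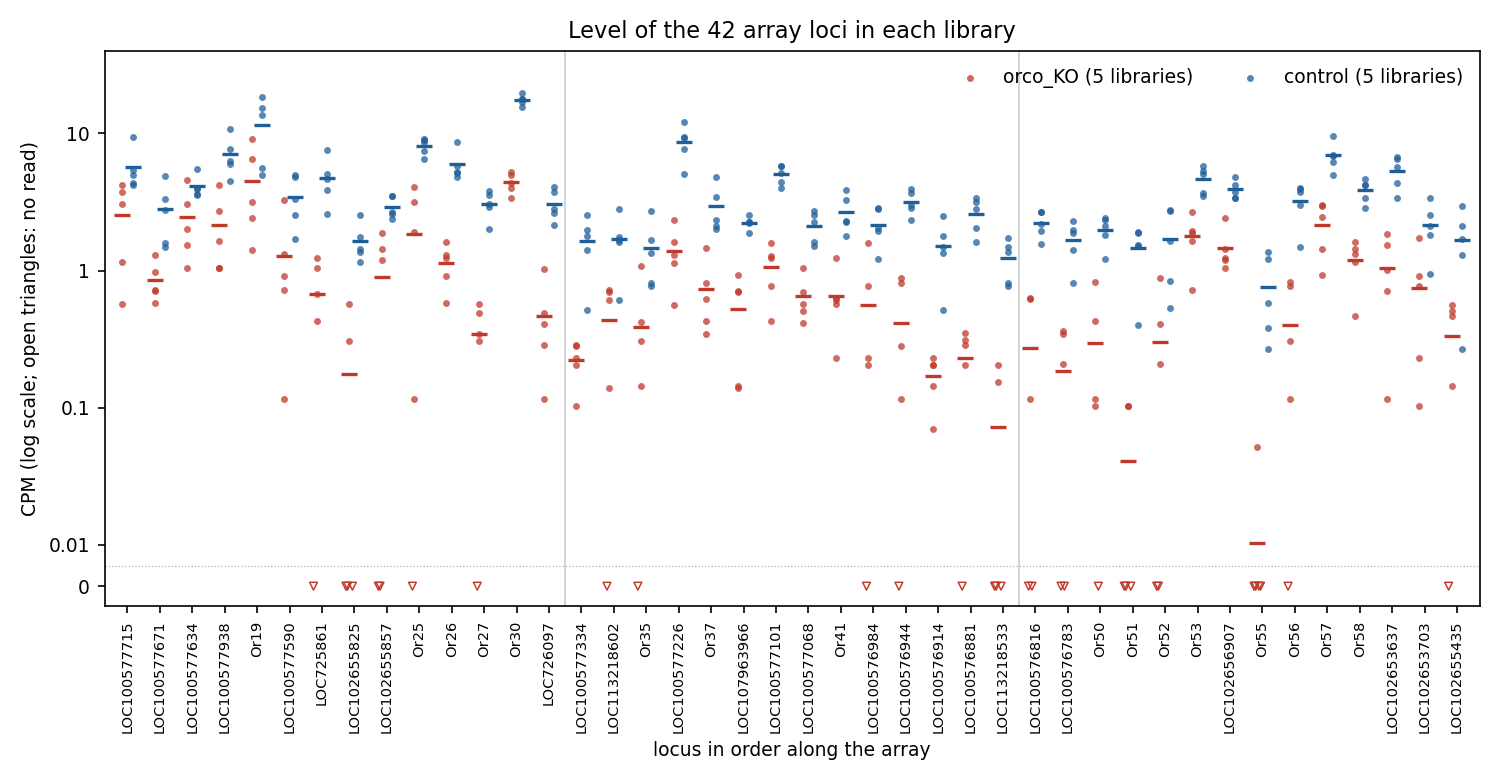
CPM on a log scale (y axis) of the 42 loci in their order along the array (x axis). Small points are libraries, orco_KO left of control at each locus, dashes are group means, and open triangles mark libraries without a read. The grey lines part loci 1 to 14, 15 to 28 and 29 to 42. Control means run from 0.761 CPM at Or55 to 17.5 CPM at Or30, and every orco_KO mean lies below its control mean.

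At loci 1 to 14 the test was passed by 9 of 14 tested loci, all of them lower, beside 7.98% of all tested genes. Without the filter 9 of 14 were lower, beside 6.50% of all genes, and by DESeq2 10, beside 8.94%. The first 9 loci held 5 of the 9 tested loci that did not pass the test. The cut after locus 9 was made with the values known and was not tested. LOC100577715 was at 1.16, 0.575, 3.04, 4.19 and 3.71 CPM in orco_KO libraries, against 5.38, 4.38, 9.4, 4.95 and 4.21 CPM in controls. LOC100577671 was at 0.579, 0.719, 1.29, 0.715 and 0.98 CPM in orco_KO libraries, against 1.48, 3.35, 4.91, 2.76 and 1.58 CPM in controls. LOC100577634 was at 1.04, 2.01, 3.04, 4.6 and 1.54 CPM in orco_KO libraries, against 3.63, 3.93, 5.52, 3.56 and 4.01 CPM in controls. All orco_KO libraries lay below all controls at the first pair of loci, and at LOC100577634 orco_KO replicate 11 exceeded 4 of the controls. LOC100577671 had a log2 fold change of -1.67 (SE 0.409, adjusted p = 0.0153). LOC100577715 was at -1.11 with an adjusted p of 0.108, and LOC100577634 at -0.74 (SE 0.357, adjusted p = 0.205), the smallest change of the array. At both of these loci control replicate 5 stood above the other controls.

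LOC100577938 was at 1.04, 2.73, 4.23, 1.63 and 1.05 CPM in orco_KO libraries, against 7.66, 4.51, 10.8, 6.28 and 5.93 CPM in controls. Or19 was at 2.43, 6.47, 9.02, 3.17 and 1.4 CPM in orco_KO libraries, against 18.4, 15.3, 13.6, 4.99 and 5.63 CPM in controls. LOC100577590 was at 0.116, 0.719, 3.25, 0.919 and 1.33 CPM in orco_KO libraries, against 4.97, 4.77, 3.34, 1.7 and 2.53 CPM in controls. LOC100577938 fell, with a log2 fold change of -1.68 (SE 0.393, adjusted p = 0.0116). Or19, named as a receptor, overlapped between groups: orco_KO replicates 5 and 9 lay above controls 6 and 7, which had less than controls 3, 4 and 5. Its log2 fold change was -1.33 (SE 0.487, adjusted p = 0.093). Orco_KO replicate 9 was also above controls 6 and 7 at LOC100577590, which had a log2 fold change of -1.32 (SE 0.55, adjusted p = 0.143). Without orco_KO replicate 9 both passed, Or19 with an adjusted p of 0.0324 and LOC100577590 with 0.0244; Or19 also passed without controls 6 and 7 together (adjusted p = 0.0218) and by DESeq2 (0.0442).

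LOC725861 was at 0, 0.431, 0.67, 1.23 and 1.05 CPM in orco_KO libraries, against 7.53, 5.03, 2.59, 3.9 and 4.65 CPM in controls. LOC102655825 was at 0, 0, 0.567, 0.306 and 0 CPM in orco_KO libraries, against 2.55, 1.16, 1.43, 1.36 and 1.75 CPM in controls. LOC102655857 was at 0, 0, 1.19, 1.43 and 1.89 CPM in orco_KO libraries, against 3.49, 2.58, 2.66, 3.48 and 2.39 CPM in controls. The groups did not overlap at these 3 loci. LOC725861 and LOC102655825 fell, with log2 fold changes of -2.72 and -2.88 (adjusted p = 0.00294 and 0.015), and LOC102655857 was at -1.57 (SE 0.626, adjusted p = 0.124), which did not pass; by DESeq2 it did (adjusted p = 0.0438). Or25, the next locus and a named receptor, followed the same pattern in orco_KO. Or25 was at 0.116, 0, 1.91, 4.08 and 3.15 CPM in orco_KO libraries, against 7.39, 6.51, 8.72, 8.89 and 9.13 CPM in controls. The log2 fold change of Or25 was -2.07 (SE 0.596, adjusted p = 0.0355). This call was lost when orco_KO replicate 3 or 9 or control replicate 5, 6 or 7 was left out (adjusted p at most 0.0723), without controls 6 and 7 together (0.104) and by DESeq2 (0.0826).

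Orco_KO libraries 3 and 5 differed from the other libraries of their group over this run. Summed over loci 7 to 10 (LOC725861 to Or25), the level was 0.116, 0.431, 4.33, 7.05 and 6.09 CPM in orco_KO libraries, against 21, 15.3, 15.4, 17.6 and 17.9 CPM in controls. Replicates 3 and 5 held 1 and 3 reads there, while replicates 9, 11 and 12 held 84, 69 and 87 reads. The run was chosen after its values were seen and was not tested. At Or30, a few loci further on, replicates 3 and 5 were at 3.36 and 4.03 CPM, the lowest of orco_KO but close to the rest. Loci without a read in replicate 3 or 5 were spread along the array. They numbered 5 at loci 1 to 14, 6 at loci 15 to 28 and 7 at loci 29 to 42.

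Or26 was at 0.579, 1.29, 1.24, 0.919 and 1.61 CPM in orco_KO libraries, against 5.78, 4.83, 8.72, 5.26 and 5.16 CPM in controls. Or27 was at 0.347, 0, 0.567, 0.306 and 0.49 CPM in orco_KO libraries, against 2.02, 2.9, 3.07, 3.82 and 3.54 CPM in controls. Or30 was at 3.36, 4.03, 5, 5.21 and 4.34 CPM in orco_KO libraries, against 19.8, 15.5, 17.6, 16.9 and 17.7 CPM in controls. These 3 named receptors did not overlap between groups. The orco_KO libraries lay close together at Or30 (3.36 to 5.21 CPM). They spread more, relative to their level, at Or26 (0.579 to 1.61 CPM) and Or27 (0 to 0.567 CPM). Or30 had the highest CPM of the array in controls, which does not allow for its long span, and the smallest p, with a log2 fold change of -1.98 (SE 0.177, adjusted p = 7.1e-06). For Or26 and Or27 the log2 fold changes were -2.36 and -3.01 (adjusted p = 0.000153 and 0.000459), and control replicate 5 stood above the other controls at Or26. LOC726097 was at 0.116, 0.287, 1.03, 0.408 and 0.49 CPM in orco_KO libraries, against 2.15, 2.64, 2.79, 4.08 and 3.71 CPM in controls. LOC726097, whose span overlaps that of Or30, fell by 2.58 on the log2 scale (adjusted p = 0.00135).

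At loci 15 to 28 the test was passed by 8 of 11 tested loci, all of them lower, beside 7.98% of all tested genes. Without the filter 11 of 14 were lower, beside 6.50% of all genes. LOC100577226 was at 1.62, 1.29, 1.14, 2.35 and 0.56 CPM in orco_KO libraries, against 12.1, 5.09, 7.63, 9.19 and 9.37 CPM in controls. This locus had a log2 fold change of -2.66 (SE 0.353, adjusted p = 0.000164) and had the highest mean level per kb of the 14 in both groups. Or37 was at 0.347, 0.431, 0.619, 0.817 and 1.47 CPM in orco_KO libraries, against 2.02, 2.13, 2.32, 3.44 and 4.79 CPM in controls. LOC107963966 was at 0.695, 0.144, 0.928, 0.715 and 0.14 CPM in orco_KO libraries, against 2.55, 1.87, 2.25, 2.27 and 2.23 CPM in controls. LOC100577101 was at 1.27, 0.431, 1.6, 1.23 and 0.77 CPM in orco_KO libraries, against 4.43, 5.15, 5.79, 5.79 and 3.98 CPM in controls. The groups stood apart at all 3 loci, with log2 fold changes of -1.95, -2.01 and -2.20 (adjusted p = 0.00767, 0.0102 and 0.000417).

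LOC100577068 was at 1.04, 0.575, 0.412, 0.511 and 0.7 CPM in orco_KO libraries, against 2.55, 1.61, 1.5, 2.72 and 2.26 CPM in controls. Or41 was at 0.232, 0.575, 1.24, 0.613 and 0.63 CPM in orco_KO libraries, against 2.28, 2.25, 1.77, 3.29 and 3.84 CPM in controls. LOC100576944 was at 0.116, 0, 0.877, 0.817 and 0.28 CPM in orco_KO libraries, against 3.9, 2.32, 2.86, 2.99 and 3.67 CPM in controls. Each of these loci fell, with no overlap of groups and log2 fold changes of -1.73, -1.96 and -2.74 (adjusted p = 0.00725, 0.00597 and 0.00333). LOC100576881 was at 0, 0.287, 0.309, 0.204 and 0.35 CPM in orco_KO libraries, against 1.61, 3.16, 2.04, 3.4 and 2.8 CPM in controls. The decrease at LOC100576881 was the largest among the tested loci of the array, with a log2 fold change of -3.39 (SE 0.481, adjusted p = 0.000293). Without controls 6 and 7 together the calls of Or37, LOC100577068 and Or41 were lost (adjusted p = 0.0754, 0.0613 and 0.0611).

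In the same stretch 3 tested loci did not pass. LOC113218602 was at 0.695, 0, 0.722, 0.613 and 0.14 CPM in orco_KO libraries, against 1.75, 1.68, 0.613, 1.63 and 2.8 CPM in controls. Or35 was at 0, 0.144, 1.08, 0.306 and 0.42 CPM in orco_KO libraries, against 1.34, 0.773, 0.818, 1.66 and 2.73 CPM in controls. LOC100576984 was at 0.232, 0, 1.6, 0.204 and 0.77 CPM in orco_KO libraries, against 1.21, 1.93, 2.04, 2.84 and 2.8 CPM in controls. At each of them orco_KO replicate 9 was above at least 1 control. The log2 fold changes were -1.90, -1.72 and -1.76 (adjusted p = 0.051, 0.0942 and 0.0695). LOC113218602 passed without control replicate 5 (adjusted p = 0.0338), and Or35 and LOC100576984 passed without orco_KO replicate 9 (0.027 and 0.0135). DESeq2 called LOC113218602 and LOC100576984 lower (adjusted p = 0.0123 and 0.0223).

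Among loci 29 to 42, 9 of 10 tested loci were lower, beside 7.98% of all tested genes. Without the filter 12 of 14 were lower, beside 6.50% of all genes. LOC100576816 was at 0.116, 0, 0.619, 0 and 0.63 CPM in orco_KO libraries, against 2.69, 1.93, 2.66, 2.19 and 1.55 CPM in controls. Or50 was at 0.116, 0.431, 0.825, 0.102 and 0 CPM in orco_KO libraries, against 1.21, 1.8, 2.32, 2.12 and 2.43 CPM in controls. Or56 was at 0.116, 0, 0.825, 0.306 and 0.77 CPM in orco_KO libraries, against 1.48, 3.03, 4.02, 3.71 and 3.94 CPM in controls. These 3 loci had 1 or 2 orco_KO libraries without a read and no overlap between groups. They fell, with log2 fold changes of -2.70, -2.61 and -2.80 (adjusted p = 0.00978, 0.0136 and 0.00331). The call of Or50 was lost without controls 6 and 7 together (adjusted p = 0.0588).

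Or52 was at 0, 0, 0.877, 0.408 and 0.21 CPM in orco_KO libraries, against 0.537, 0.838, 1.64, 2.72 and 2.76 CPM in controls. Orco_KO replicate 9 lay above controls 3 and 4 at this receptor gene, and controls 6 and 7 were the highest. Or52 had a log2 fold change of -2.29 (SE 0.703, adjusted p = 0.0474). The call was lost when orco_KO replicate 3, 5, 11 or 12 or control replicate 5, 6 or 7 was left out (adjusted p at most 0.112), with the scaling of DESeq2 (0.0511), without the filter (0.0508) and without controls 6 and 7 together (0.296).

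Or53 was at 2.66, 0.719, 1.65, 1.94 and 1.89 CPM in orco_KO libraries, against 3.49, 5.28, 3.68, 5.79 and 5.06 CPM in controls. LOC102656907 was at 2.43, 1.44, 1.19, 1.23 and 1.05 CPM in orco_KO libraries, against 3.36, 4.19, 3.75, 4.8 and 3.4 CPM in controls. These neighbours had the smallest decreases among the loci that passed, with log2 fold changes of -1.39 and -1.44 (adjusted p = 0.00989 and 0.00592). Orco_KO replicate 3 was the highest of its group at both, and at LOC102656907 it was far above the rest of orco_KO. Without controls 6 and 7 together Or53 did not pass (adjusted p = 0.0614).

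Or57 was at 0.926, 1.44, 2.99, 2.45 and 2.94 CPM in orco_KO libraries, against 4.97, 6.89, 6.95, 6.16 and 9.57 CPM in controls. Or58 was at 0.463, 1.15, 1.44, 1.33 and 1.61 CPM in orco_KO libraries, against 3.36, 2.83, 4.63, 4.24 and 4.21 CPM in controls. LOC102653637 was at 0.116, 1.01, 1.86, 0.715 and 1.54 CPM in orco_KO libraries, against 3.36, 4.38, 5.72, 6.77 and 6.5 CPM in controls. At the end of the run of named receptors the groups again did not overlap, with log2 fold changes of -1.65, -1.65 and -2.28 (adjusted p = 0.00315, 0.00417 and 0.00331). LOC102653703 was at 0.232, 1.73, 0.773, 0.102 and 0.91 CPM in orco_KO libraries, against 0.941, 2.13, 2.52, 1.81 and 3.4 CPM in controls. Here orco_KO replicate 5 was above control replicate 3, and the log2 fold change was -1.58 (SE 0.547, adjusted p = 0.0767). The locus passed without orco_KO replicate 5 (adjusted p = 0.0354), without control replicate 3 (0.0475) and by DESeq2 (0.034).

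The 7 loci below the filter had low counts in at least 1 control. Or51 held 3 reads over the 5 orco_KO libraries and 150 over the 5 controls (log2 fold change -4.71, adjusted p = 0.000538 in the fit without the filter). Or55 held 1 read over the 5 orco_KO libraries and 77 over the 5 controls (log2 fold change -5.02, adjusted p = 0.00227 in the fit without the filter). Only orco_KO replicate 9, with 1 read, held any read of Or55. From these reads Or51 was 31.5-fold lower in orco_KO and Or55 48.5-fold lower. The exact 95% intervals, which cover counting error only, were 10.6 to 154 and 8.45 to 1941. Fragments were sequenced from both ends, and whether both reads of a pair were counted is not given in the sources used here; if they were, reads are not independent and these intervals are too narrow. LOC113218533 held 5 reads over the 5 orco_KO libraries and 128 over the 5 controls (log2 fold change -3.81, adjusted p = 0.00267 in the fit without the filter). LOC100576914 held 10 reads over the 5 orco_KO libraries and 151 over the 5 controls (log2 fold change -3.12, adjusted p = 0.00188 in the fit without the filter). LOC100576783 held 13 reads over the 5 orco_KO libraries and 174 over the 5 controls (log2 fold change -3.01, adjusted p = 0.00479 in the fit without the filter). LOC100577334 held 13 reads over the 5 orco_KO libraries and 145 over the 5 controls (log2 fold change -2.84, adjusted p = 0.00267 in the fit without the filter). In all 6 loci named so far in this paragraph every orco_KO library lay below every control, which was so for 6.31% of genes with a read. At Or51 and Or55 control replicate 3 held 3 and 2 reads, or 0.403 and 0.269 CPM. Both values are below 0.431 CPM, the limit for a count of 0 in orco_KO replicate 5. Depth therefore does not settle the order of these libraries at Or51 and Or55. LOC102655435 held 23 reads over the 5 orco_KO libraries and 181 over the 5 controls (log2 fold change -2.21, adjusted p = 0.0376 in the fit without the filter). Control replicate 3, with 2 reads, was below 3 orco_KO libraries at LOC102655435, the last locus of the array.

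Levels between loci were compared per kilobase of span not shared with another gene on the same strand. In both groups Or19 had the highest mean level, 2.86 ± 2.01 CPM per kb in orco_KO and 7.38 ± 3.82 CPM per kb in controls (SD, n = 5 each). Within libraries it was the highest in 2 of 5 orco_KO libraries (replicates 5 and 9) and 3 of 5 controls (replicates 3, 4 and 5); in controls 6 and 7 LOC100577226 was the highest. By mean level it was followed in controls by LOC100577938 (3.85 ± 1.3), LOC100577226 (3.69 ± 1.09), Or25 (3.43 ± 0.477) and Or30 (3.12 ± 0.274 CPM per kb). Neighbours in this order after Or19 differed by less than the larger of their SDs. Or55 had the lowest mean level in both groups, with 0.00566 ± 0.0127 CPM per kb in orco_KO and 0.417 ± 0.273 CPM per kb in controls. The order of the 42 loci was similar in both groups (Spearman's rho 0.890 and, on log2 levels, Pearson's r 0.861 across loci, which share libraries and are not independent).

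Levels were highest near the proximal end of the array in both groups. The median level of loci 1 to 14 was 0.559 CPM per kb in orco_KO and 2.22 CPM per kb in controls. It was 0.223 CPM per kb in orco_KO and 0.911 CPM per kb in controls at loci 15 to 28, and 0.170 CPM per kb in orco_KO and 1.08 CPM per kb in controls at loci 29 to 42. Across the 42 loci, order along the array and log2 control level per kb had a Spearman's rho of -0.448. Across the 35 tested loci, rho between order and log2 fold change was -0.188. Loci 1 to 14 made up 56% ± 7.53 of the summed CPM of the array in orco_KO and 50.4% ± 6.62 in controls, with overlapping ranges (43.3% to 61.7% in orco_KO and 43.1% to 57.6% in controls). Loci 15 to 28 made up 18.6% ± 4.99 in orco_KO and 24.1% ± 3.68 in controls. Loci 29 to 42 made up 25.4% ± 4.41 in orco_KO and 25.5% ± 5.04 in controls (SD, n = 5 each).

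Whether neighbours changed to different extents was tested on the ratio of each tested locus to the next tested one within each library. None of 34 pairs passed (exact two-sided permutation test of 5 against 5 libraries, Benjamini-Hochberg adjustment over the pairs; smallest adjusted p = 0.27), and 6 pairs had an unadjusted p below 0.05. The pair Or56 and Or57 reached the smallest p the design allows, 0.00794. The log2 ratio of Or57 to Or56 was 2.34 ± 0.771 in orco_KO and 1.11 ± 0.388 in controls (SD, n = 5 each), and it was higher in 5 of 5 orco_KO libraries than in any control. Among 34 pairs, a single pair at this p has an adjusted p of 0.27, however large its difference. The adjusted test could pass only if several pairs reached such a p together. It therefore cannot show that neighbours changed to the same extent.

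**Figure D3:**
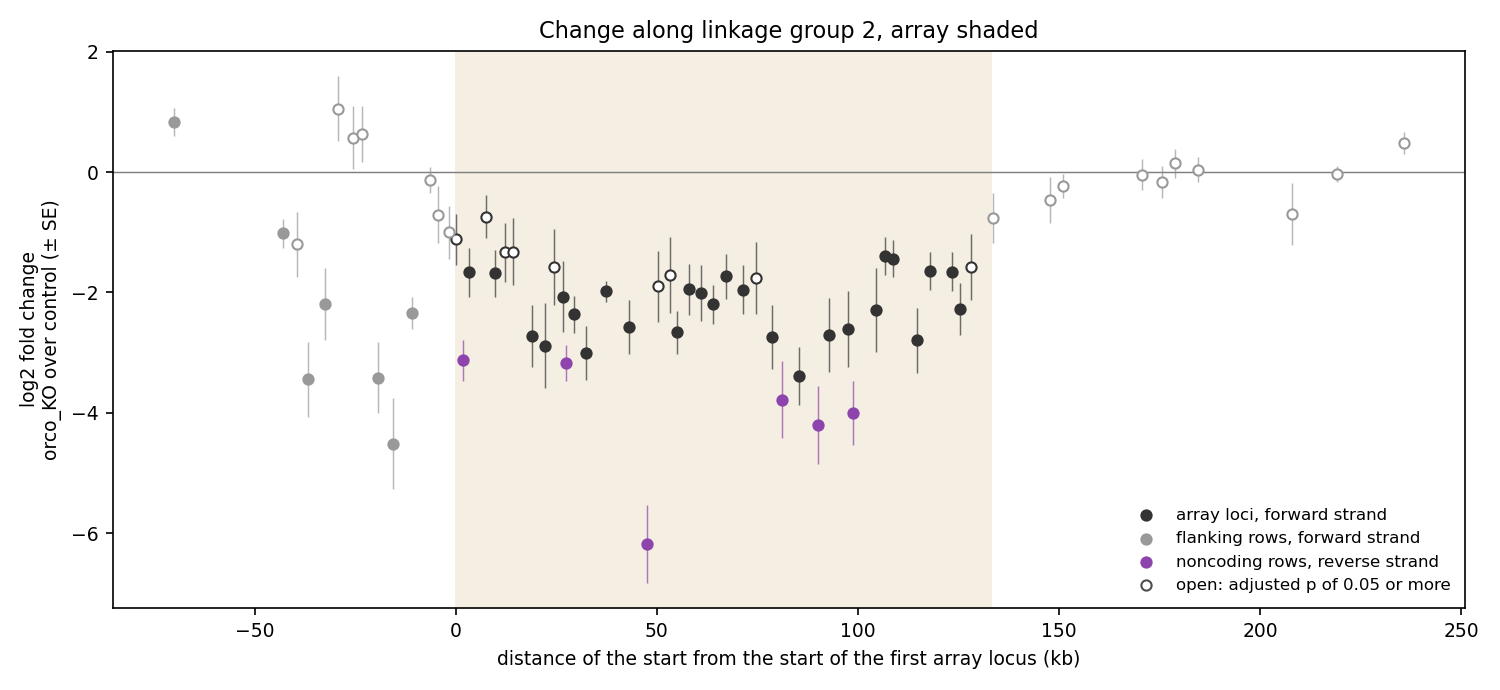
Log2 fold change of orco_KO over control with its SE (y axis) against the distance of each gene's start from the start of the first array locus in kb (x axis), for tested forward-strand loci of the array (black), forward-strand genes in the stretches before and after (grey) and reverse-strand noncoding genes inside it (purple). Filled points passed the test. All tested array loci lie below 0, and no gene after the array passed.

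Past the distal end of the array no forward-strand gene passed. In a stretch of equal length after it, 0 of 10 tested genes were called by edgeR, 1 had an unadjusted p below 0.05, and 1 was called by DESeq2, as higher in orco_KO; the median log2 fold change was -0.10. The first of them, SPG11, was at 5.84 ± 2.54 CPM in orco_KO and 9.97 ± 6.01 CPM in controls, with a log2 fold change of -0.77 (SE 0.417, adjusted p = 0.266). On the proximal side changes were mixed. In a stretch of equal length before the array, 14 forward-strand genes were tested, with a median log2 fold change of -1.01. Of these 14 genes, 6 were lower and 1 was higher, beside 7.98% and 4.57% of all tested genes. The 3 genes of this stretch nearest the array, Or12, Or13 and Or14, were at -0.14, -0.71 and -0.999 and did not pass. Or10 fell by 4.52 on the log2 scale. Genes outside the array with an Or number as symbol or synonym, Or2 left out, were lower in 9 of 15 tested cases, beside 7.98% of all tested genes. Their median log2 fold change was -2.12. They include Or4, Or5 and Or9 to Or14 of the stretch before the array, so this set and that stretch overlap. No test of the difference between these sets and the array was made.

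Genes on the opposite strand inside the array also had less RNA in orco_KO. The annotation holds 7 long noncoding RNAs there, which together overlap 14 array loci. In the fit without the filter 7 of 7 were lower, beside 6.50% of all genes, and in the main fit 6 of 6, beside 7.98%. LOC113218603 was at 1.62, 1.58, 1.08, 3.17 and 1.96 CPM in orco_KO libraries, against 16.1, 16.8, 26.3, 13.9 and 8.56 CPM in controls. LOC107966088 was at 0.926, 0.863, 1.34, 1.23 and 1.68 CPM in orco_KO libraries, against 7.53, 7.73, 17.6, 11.7 and 11.5 CPM in controls. LOC102656092 was at 0, 0, 0.0516, 0 and 0 CPM in orco_KO libraries, against 1.88, 1.29, 1.77, 1.7 and 2.23 CPM in controls. No library of one group reached into the range of the other at these 3 genes. LOC113218603, which overlaps the first pair of array loci, and LOC107966088, which overlaps Or25, Or26, Or27 and Or30, fell with log2 fold changes of -3.13 and -3.17 (adjusted p = 3.3e-05 and 1.1e-05). LOC102656092, opposite LOC100577334, held 1 read in orco_KO and 171 in controls, 108-fold lower, with an exact 95% interval of 19.1 to 4280 for counting error, under the same limit.

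LOC113218588 was at 0, 0, 0.155, 0.306 and 0.07 CPM in orco_KO libraries, against 2.96, 1.48, 1.7, 1.78 and 0.843 CPM in controls. LOC102656676 was at 0, 0.287, 0.155, 0.306 and 0 CPM in orco_KO libraries, against 1.21, 2.06, 1.91, 3.86 and 4.08 CPM in controls. LOC107966089 was at 0, 0, 0.412, 0.204 and 0.21 CPM in orco_KO libraries, against 2.82, 3.16, 4.63, 3.71 and 2.49 CPM in controls. Orco_KO libraries were at or near 0 at these noncoding genes, which lie opposite loci between 26 and 32. Their log2 fold changes were -3.78, -4.20 and -4.00 (adjusted p = 0.00116, 0.00061 and 0.00017 by edgeR). LOC107966095, which was removed by the filter, held 3 reads in orco_KO and 90 in controls. Its control replicate 3, with 1 read, lay within the orco_KO range. In 13 of 14 overlapping pairs the noncoding gene had the more negative log2 fold change, the exception being LOC107966089 and Or51. The counts were made per strand, and each noncoding gene shares its place with up to 4 array loci, so the pairs are not independent and this order was not tested.

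**Figure D4:**
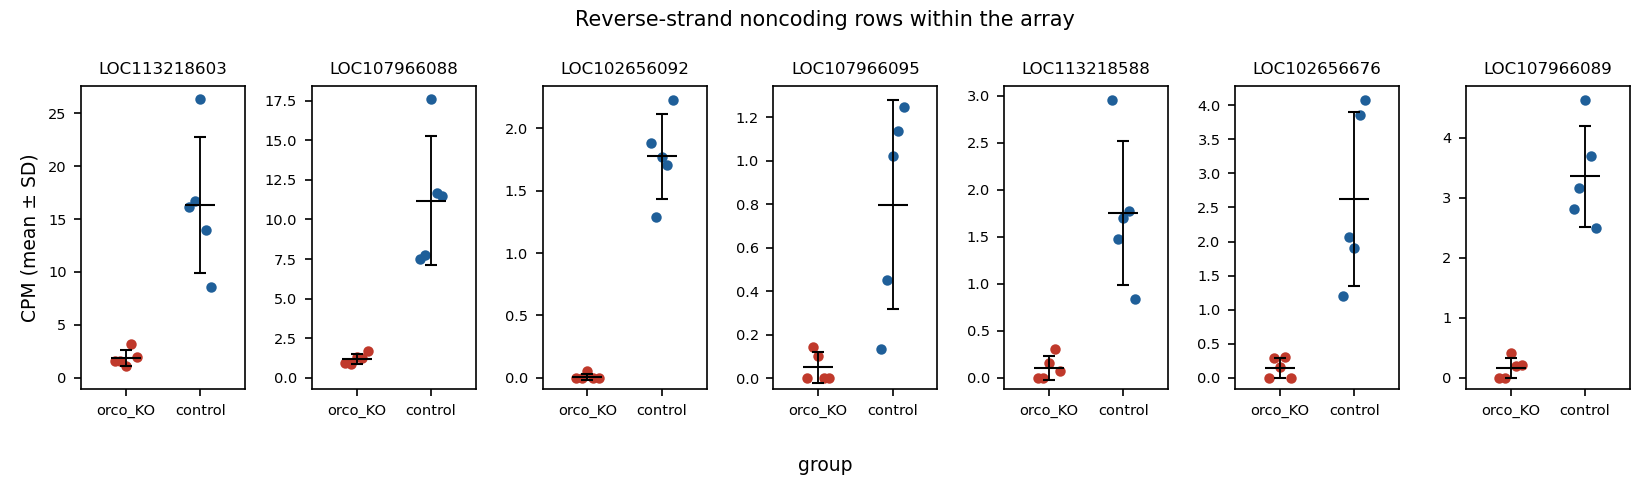
CPM (y axis, a scale of its own in each panel) of the 7 reverse-strand noncoding genes inside the array, by group (x axis), with each of the 5 libraries as a point and the mean ± SD in black. Group means are lower in orco_KO in all panels, and the groups overlap at LOC107966095 alone.

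Controls differed among themselves along the array. The mean level in controls 6 and 7 over that in controls 3, 4 and 5 had a median ratio of 0.857 at loci 1 to 14, 1.45 at loci 15 to 28 and 1.32 at loci 29 to 42. Controls 6 and 7 were the higher at 4 of 14, 12 of 14 and 13 of 14 loci in these sets. The ratio was lowest at Or19 (0.336) and highest at Or52 (2.73). Spearman's rho between order along the array and this ratio was 0.550 across the 42 loci, which share the libraries, and no test was made since controls 6 and 7 were set apart from the data. These 2 libraries were also the deepest of the series, with 21580111 and 23453690 counts. Their TMM factors were 1.225 and 1.265, against 0.784, 1.018 and 0.91 in controls 3, 4 and 5. Whether a ratio lies above or below 1 thus depends on this scaling, and the share over all genes was not taken.

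**Figure D5:**
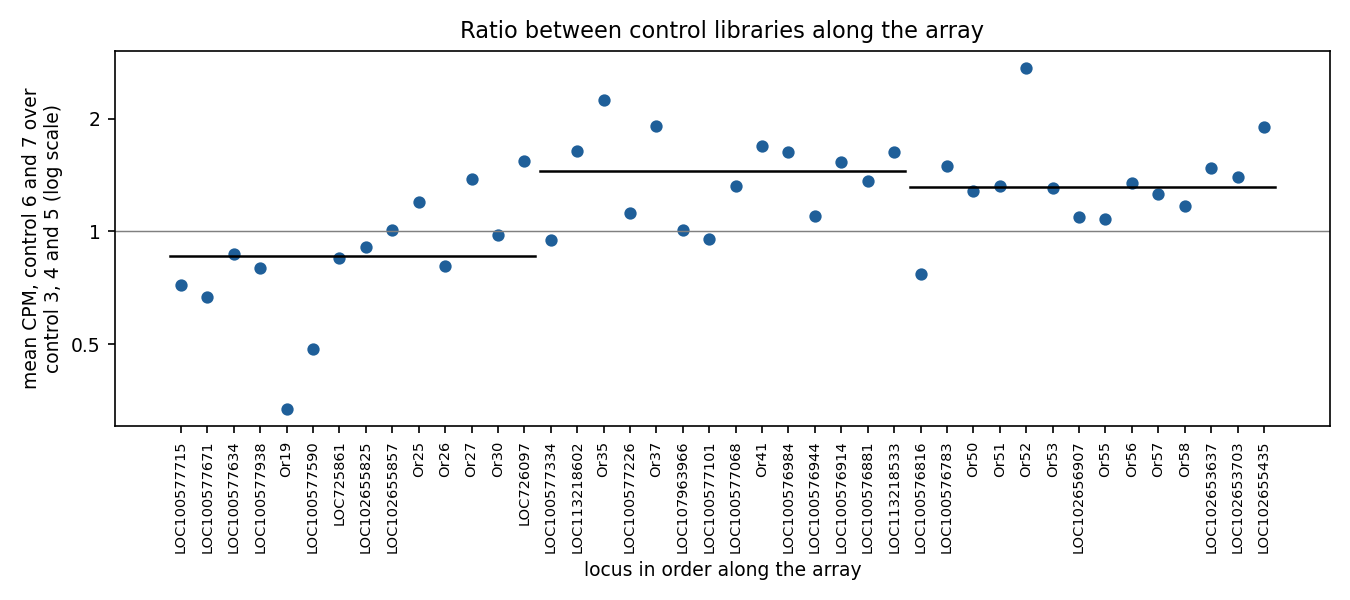
Mean CPM in control replicates 6 and 7 divided by that in control replicates 3, 4 and 5 (y axis, log scale) for the 42 loci in order along the array (x axis). Black lines are medians over loci 1 to 14, 15 to 28 and 29 to 42, at 0.857, 1.45 and 1.32.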

How the data were processed

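RNA was taken from antennae of adult bees. Per the labels' protocols, ribosomal RNA was depleted, stranded TruSeq libraries were made and all were sequenced on a single NovaSeq lane; the labels call the molecule polyA RNA. What the authors deposited are raw counts, 1 table per library and not normalized. The aligner was STAR 2.7.3a by the submitters' processing notes. Counting used featureCounts 2.0.0 at strand setting 2 over whole gene spans, introns included, per the file headers. No option for multiply mapped reads, overlapping features or fragments was set. Symbols came from a RefSeq gene table of Amel_HAv3.1, matched by exact coordinates; all 42 loci matched.

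Of 12337 features 5 virus genomes were left out, and library size was the sum over 12332 bee genes. Counts were fitted in R 4.3.3 with edgeR 4.0.16 (filterByExpr, TMM, quasi-likelihood test without covariates, Benjamini-Hochberg adjustment over 9222 genes, threshold 0.05), and the array was read from that fit. The SE is the log2 fold change over the root of F. Alternatives were DESeq2 1.42.0, its scaling, no filter, leaving out libraries and a block by library number. The fit was also run on counts simulated gene by gene from its own means and dispersions, which is no check of the array loci. Ratios of neighbours used log2 CPM with a prior count of 2. Figures were drawn with matplotlib 3.10.9.

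The members, lists and stretches were chosen with earlier results of these data known. Every tested locus is named with its value in each library, the other loci by their counts. The noncoding genes and the other genes with values outside the array were named after their values were seen, Or2 and the marker lists excepted.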

Additional observations from a re-analysis of the deposited data

Results flagged for a closer look

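In 6 of 86 groups of 5 libraries (the 42 loci and Or2 in each group), 1 library lay far outside the other 4 by Dixon's test; chance flags about 1 in 20 groups. Control replicate 5 was the high library at 3 loci: LOC100577715 at 9.4 CPM (next control 5.38), LOC100577634 at 5.52 CPM (next 4.01) and Or26 at 8.72 CPM (next 5.78). Control replicate 3 was the low library at Or51, with 0.403 CPM against 1.52 CPM in the next control. Orco_KO replicate 3 was the high library at LOC102656907, with 2.43 CPM against 1.44 CPM in the next orco_KO library. At Or55 the value of 0.0516 CPM in orco_KO replicate 9 is a single read beside 4 libraries without any.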

How the results depend on the processing

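All tested array loci had a negative log2 fold change under every alternative run. Lower array loci numbered 26 of 35 in the main fit, 30 of 35 by DESeq2, 25 of 35 with its scaling and 32 of 42 without the filter. Fits that left out 1 library tested 35 to 41 array loci. In these, lower loci ran from 24 of 35 (without control replicate 6 or 7) to 34 of 41 (without orco_KO replicate 9). Without controls 6 and 7 together 20 of 33 were lower. The count of higher loci was 0 in each fit. Over all tested genes, 6.28% to 8.94% were lower in these fits. Of the 26 called loci 24 kept their call in all 10 fits that left out 1 library, the others being Or25 and Or52. The log2 fold change of Or2 ranged from -4.52 (with the replicate block described below) to -3.92. The count of higher genes over the whole table, 421, was 780 by DESeq2, 200 without controls 6 and 7 together and 250 to 684 when 1 library was left out (250 without control replicate 6 or orco_KO replicate 3, 276 without control replicate 7, 684 without control replicate 3); the cause was not tested. No pair of neighbours passed with a prior count of 0.5 or without controls 6 and 7, where 5 and 0 pairs had an unadjusted p below 0.05. The smallest p these designs allow is 0.00794 and 0.0179. A single pair could thus not pass among 34, and these runs are no check of the result.

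Only the library numbers 3 and 5 occur in both groups, and the labels do not say that they pair libraries; the deviations of same-numbered libraries correlated at 0.0793 and 0.14. With library number as a replicate block, which leaves 1 residual degree of freedom, 20 of 35 loci were lower and 0 higher. Of these, 16 were among the 26, and the other 4 were LOC100577715, Or19, LOC100577590 and LOC102655857. Over all genes 595 were lower (6.45%) and 375 higher. The group difference in this fit rests on replicates 3 and 5 of each group alone, since every other number occurs in 1 group. Depth limits the faint loci: 1 read is 0.0337 CPM in the deepest library and 0.144 CPM in the shallowest.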
